A study of Mus musculus with 8 samples.

Results

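Class II histocompatibility molecules and their regulator Ciita were measured as messenger RNA in sorted Lin-Sca1+Kit+ (LSK) cells, the haematopoietic stem and progenitor fraction of the mouse. The 10 genes were fixed by symbol (H2-Aa, H2-Ab1, H2-Eb1, Cd74, Ciita, H2-DMa, H2-DMb1, H2-DMb2, H2-Oa and H2-Ob). All 10 were among the 26146 genes of the deposited count table, and all 10 passed the filter on low counts. The 8 libraries came from 8 mice, 4 wild type and 4 with a Jmjd6 KO. In the KO a loxP-flanked Jmjd6 allele was removed from blood-forming lineages by a Cre recombinase of restricted expression. The labels do not name the Cre line, the strain, the age or the sex of the mice, and they do not say whether the wild type mice carried a floxed allele or the Cre. Jmjd6 encodes an oxygenase that modifies lysines of proteins, splicing factors among them.

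Class II molecules are cell surface pairs of an alpha and a beta chain that show peptides from the endosome to CD4 T cells. B cells, dendritic cells and macrophages carry them at high levels, and early progenitors are known to carry some. H2-Aa and H2-Ab1 encode the chains of I-A, H2-Eb1 the beta chain of I-E, and Cd74 the invariant chain that fills the groove until it is cut in the lysosome. The remaining fragment is taken out by H2-DM, made of an alpha chain (H2-DMa) and a beta chain (H2-DMb1 or H2-DMb2). H2-O, made of H2-Oa and H2-Ob, binds H2-DM and restrains it. Ciita is the coactivator that binds no DNA itself and switches class II genes on through factors bound to their promoters. These are the RFX complex and CREB family proteins at the X box and NF-Y at the Y box.

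The promoters show what the members share in sequence. RefSeq windows from 250 bases before to 50 bases after a gene's start (GRCm38.p6) matched 7 of the 10 members (H2-Aa, H2-DMa, H2-DMb1, H2-DMb2, H2-Eb1, H2-Oa and H2-Ob). They are shown as 60 bases around the Y box for the 4 members in which that stretch touched no annotated exon and lay close to the start. Capitals mark ATTGG, the core of the Y box, and, where found, AGNNACNGA or ATGATGC upstream of it.
H2-Eb1: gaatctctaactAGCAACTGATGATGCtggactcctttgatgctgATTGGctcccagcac
H2-Ob: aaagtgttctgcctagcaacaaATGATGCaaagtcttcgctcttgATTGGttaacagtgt
H2-DMb2: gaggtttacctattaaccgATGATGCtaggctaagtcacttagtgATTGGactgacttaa
H2-Aa: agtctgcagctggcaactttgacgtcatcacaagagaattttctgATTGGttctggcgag

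These stretches lie at chr17:34305763-34305822 (H2-Eb1, plus strand), chr17:34238803-34238862 (H2-Ob, plus strand), chr17:34145114-34145173 (H2-DMb2, plus strand) and chr17:34287857-34287916 (H2-Aa, minus strand). ATTGG began 59, 57, 90 and 48 bases before the RefSeq start, in that order. Searched on both strands, ATTGG was in the windows of all 7 matched members and in 37.4% of the 32851 promoter windows. The pair of AGNNACNGA and, 10 to 30 bases on along the same strand, ATTGG was in H2-DMb1 and H2-Eb1 and in 0.228% of all windows. The pair of ATGATGC and ATTGG at the same spacing was in H2-DMb1, H2-DMb2, H2-Eb1 and H2-Ob and in 0.0639% of all windows. The last pattern was chosen after these promoters had been read, and its letters overlap those of AGNNACNGA by 1 base in H2-Eb1. A match describes letters in a window and shows no binding.

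Total counts ran from 9344779 to 15079960 per library. The targeted gene was lower in each KO library: Jmjd6 stood at 52.4, 63.6, 54.6 and 63.6 CPM (counts relative to the effective library size) across the wild type libraries and 28.6, 28.025, 30.7 and 27.5 CPM across those of the KO (log2 fold change -1.03, adjusted p = 0.0381 by edgeR). Its adjusted p was above 0.05 in 10 of 19 alternative fits, those without 1 library among them except without KO replicate 3, with log2 fold changes from -1.11 to -0.99. Wild type replicate 4 and KO replicate 3 had 0 counts of 4 Y-linked genes, against 3660 to 4814 in each of the other 6 libraries, and KO replicate 3 lay far from the other 7 on principal component 1. Wild type replicate 1 had the highest summed neutrophil and mast cell markers (4237.5 CPM, mostly Mpo and Elane, against 745 to 1963 CPM in the other 7) and erythroid markers (418 CPM against 20.2 to 65.1 CPM), while Ltf, Camp and Ngp were highest in KO replicate 1. Of the 8 neutrophil and mast cell markers tested, 4 were higher in KO at an unadjusted p under 0.05 by edgeR (Camp, Ngp, Mcpt8 and Cpa3), and of 6 erythroid markers 2 were lower, Car1 among them. Of all genes tested, 6.06% reached that level in either direction. The LSK markers were present throughout, with Kit at 473 ± 22.4 CPM (wild type) and 462 ± 44.4 CPM (KO) (SD, n = 4 per group) and Cd34 at 1272 ± 138 and 1240 ± 27.99 CPM. Within the LSK list, Hlf, a transcription factor of stem cells, averaged 227 CPM (wild type) and 145 CPM (KO) (log2 fold change -0.65, adjusted p = 0.489 by edgeR). Cd48, a surface protein gained as stem cells become progenitors, averaged 140.0 and 253 CPM (log2 fold change 0.86, adjusted p = 0.811 by edgeR), and neither gene overlapped between genotypes. Such a lack of overlap held for 285 genes lower and 280 higher in KO among all 13439 tested. The other LSK markers overlapped, among them Procr (log2 fold change -0.13) and Meis1 (-0.24). Some markers of mature B cells and T cells were near the limit of counting. Ms4a1 and Pax5 averaged at most 0.163 CPM in either genotype, and Cd3e at most 0.016 CPM.

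Class II transcripts were counted in the sorted LSK libraries of both genotypes at levels that differed widely between members. Which cells of the sorted fraction held them was not tested. Divided by the length of the transcript with the longest coding sequence, the wild type levels were 125.7 ± 21.7 CPM per kilobase for H2-DMa, 115.1 ± 20.6 for H2-Ob and 83.2 ± 38.4 for H2-Ab1 (SD, n = 4). H2-Aa stood at 52.4 ± 13.9 CPM per kilobase, Cd74 at 43.6 ± 19.1, H2-DMb1 at 31.8 ± 5.58, H2-Oa at 26.2 ± 4.94 and H2-Eb1 at 19.6 ± 5.56. H2-DMb2 at 3.50 ± 0.367 CPM per kilobase and Ciita at 0.969 ± 0.394 were the lowest. Each neighbour in this order overlapped the next in the range of its 4 libraries down to H2-Eb1, and only H2-DMb2 and Ciita stood below the gene before them without overlap. Dividing by the union of annotated exons moved H2-Ob from the second place to the fourth and H2-Aa from the fourth to the eighth, while H2-DMa stayed first and H2-DMb2 and Ciita last.

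**Figure D1:**
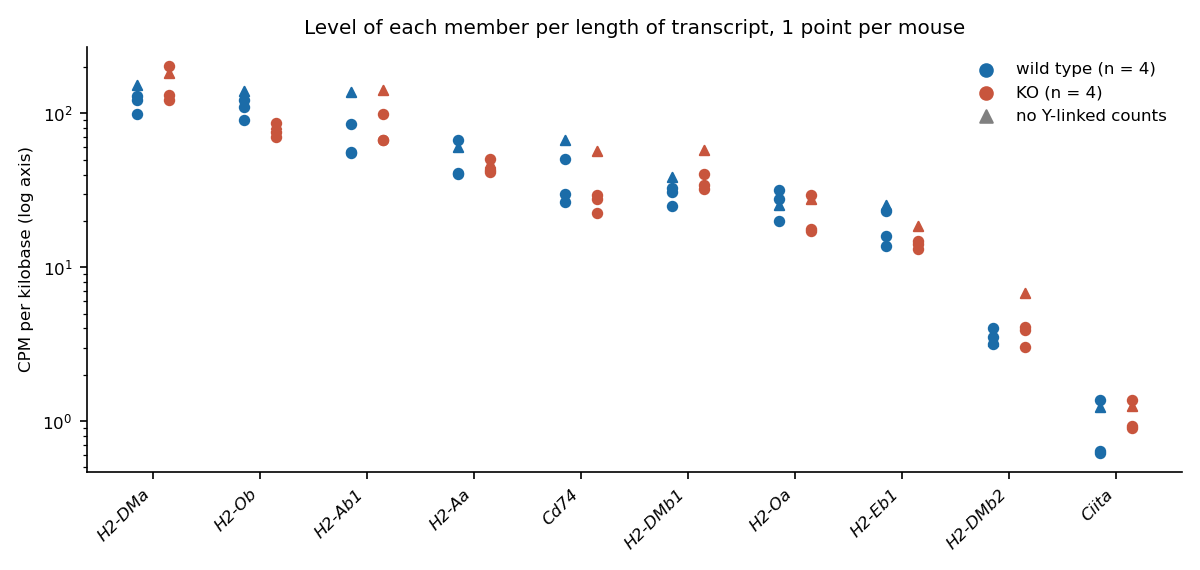
CPM per kilobase of transcript (log axis) of the 10 members, ordered by their wild type mean, with 1 point per mouse (blue wild type, red KO, triangles the libraries without Y-linked counts). H2-DMb2 and Ciita lie below the other members, and H2-Ob is the member whose blue and red points separate.

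The first question was whether the members differed between KO and wild type LSK cells. By the quasi-likelihood test of edgeR, 0 of the 10 reached an adjusted p under 0.05, against 0.0595% of all 13439 genes tested. DESeq2 and limma voom also called 0 members. At an unadjusted p under 0.05 edgeR had 1 member, H2-Ob, against 6.06% of all genes tested. DESeq2 likewise had 1 member at that level, and limma voom had 2, H2-Ob and H2-Oa. The median log2 fold change of the 10 was -0.01, beside -0.0024 over all genes tested, with 5 members above 0 and 5 below. The members therefore did not lie to one side: the 3 H2-DM genes gave values above 0, and H2-Ob, H2-Oa, H2-Eb1, Cd74 and H2-Aa values below 0.

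**Figure D2:**
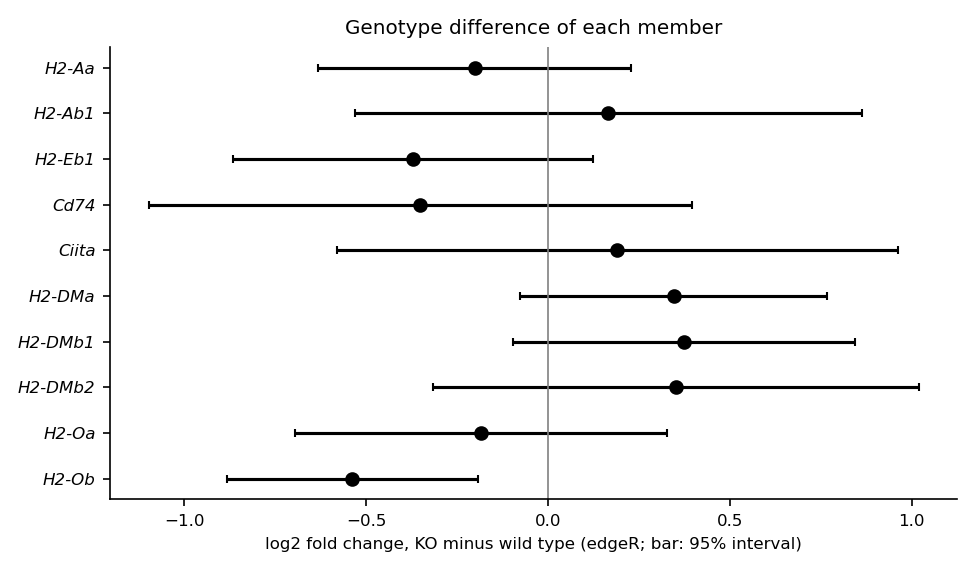
Log2 fold change of each member, KO minus wild type, with its 95% interval from the edgeR fit over 4 libraries per genotype. The interval of H2-Ob, from -0.88 to -0.19, lies below 0, and those of the other 9 members cross it.

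H2-Ob, the beta chain of the H2-DM inhibitor, was the member with the smallest p-value. It stood at 148, 182, 201 and 229 CPM in wild type replicates 1 to 4 and at 125, 142, 140 and 116 CPM in KO replicates 1 to 4. Every KO library lay below every wild type library, which held for 2.12% of all genes tested (285 of 13439). In a further 280 genes every KO library lay above every wild type library. The means were 190.0 ± 34.0 CPM (wild type) and 130.9 ± 12.4 CPM (KO), a KO level of 68.9% of wild type (log2 fold change -0.54, SE 0.16, unadjusted p = 0.0054, adjusted p = 0.558 by edgeR). The adjusted p over 19 alternative fits ran from 0.15 to 0.999, so the call was not made in any of them, while the log2 fold change stayed between -0.67 and -0.44. Restricted to the 6 libraries with Y-linked counts it was -0.47, and the 2 libraries without them held 229 CPM (wild type) and 140 CPM (KO). Hlf was also lower and Cd48 higher in KO without overlap, and the part of the makeup of the sorted fraction in the H2-Ob values was not tested. H2-Ob lies on chromosome 17 from 34238903 to 34254414 (mm10, plus strand), between the H2-DM genes and H2-Ab1.

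H2-Oa, the alpha chain of the same pair, did not separate. It held 21.8, 34.7, 29.98 and 27.4 CPM in wild type and 19.3, 18.7, 30.2 and 32.1 CPM in KO. KO replicates 1 and 2 were lower than every wild type library, and KO replicates 3 and 4 lay within the wild type range. The estimate was a log2 fold change of -0.18 (95% interval -0.69 to 0.33, adjusted p = 0.891 by edgeR). It ran from -0.32 without KO replicate 4 to -0.04 without KO replicate 2, with -0.05 without KO replicate 1 and -0.07 without wild type replicate 2. By limma voom it was -0.48 (unadjusted p = 0.0227, adjusted p = 0.418). Its annotated exons (chromosome 17, 34092340 to 34095234, plus strand) share 321 bases with the antisense gene BC051537, and the sources used here do not state whether counting used strand.

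The H2-DM genes, whose product loads peptide onto class II, gave values above 0 in KO that did not pass the test. H2-DMa held 165, 214, 202 and 252 CPM in wild type and 219, 203, 302 and 335 CPM in KO. KO replicates 3 and 4 were above every wild type library and KO replicates 1 and 2 were not. The log2 fold change was 0.35 (95% interval -0.08 to 0.77, adjusted p = 0.832 by edgeR). It was 0.21 without KO replicate 4, 0.47 without KO replicate 2 (unadjusted p = 0.0408, adjusted p = 0.704 by edgeR) and 0.12 by limma voom. H2-DMa (chromosome 17, 34119541 to 34139101, plus strand) shares 360 exon bases with Brd2 on the opposite strand.

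H2-DMb1 held 35.3, 43.2, 45.6 and 54.3 CPM in wild type and 47.8, 45.5, 81.5 and 56.5 CPM in KO. The highest value, in KO replicate 3, was that of the library far out on principal component 1, and the log2 fold change fell from 0.37 to 0.16 without it (adjusted p = 0.832 and 0.918 by edgeR). Without KO replicate 2 the log2 fold change was 0.49. H2-DMb2, the other beta chain gene, held 4.52, 4.98, 5.72 and 4.72 CPM in wild type and 4.30, 5.54, 9.75 and 5.80 CPM in KO, again highest in KO replicate 3. Its log2 fold change was 0.35 (adjusted p = 0.850 by edgeR), with 0.07 without that library and 0.52 without KO replicate 1. The coding sequences of the 2 beta chain genes are identical at 754 of 786 bases and share a run of 221 bases, so how reads were divided between them is uncertain. H2-DMb1 carried 8.99 ± 1.72 times the CPM of H2-DMb2 in wild type and 9.35 ± 1.36 times in KO (SD, n = 4 per group). They lie side by side on chromosome 17, H2-DMb2 from 34143307 to 34151555 and H2-DMb1 from 34153072 to 34160230, both on the plus strand.

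**Figure D3:**
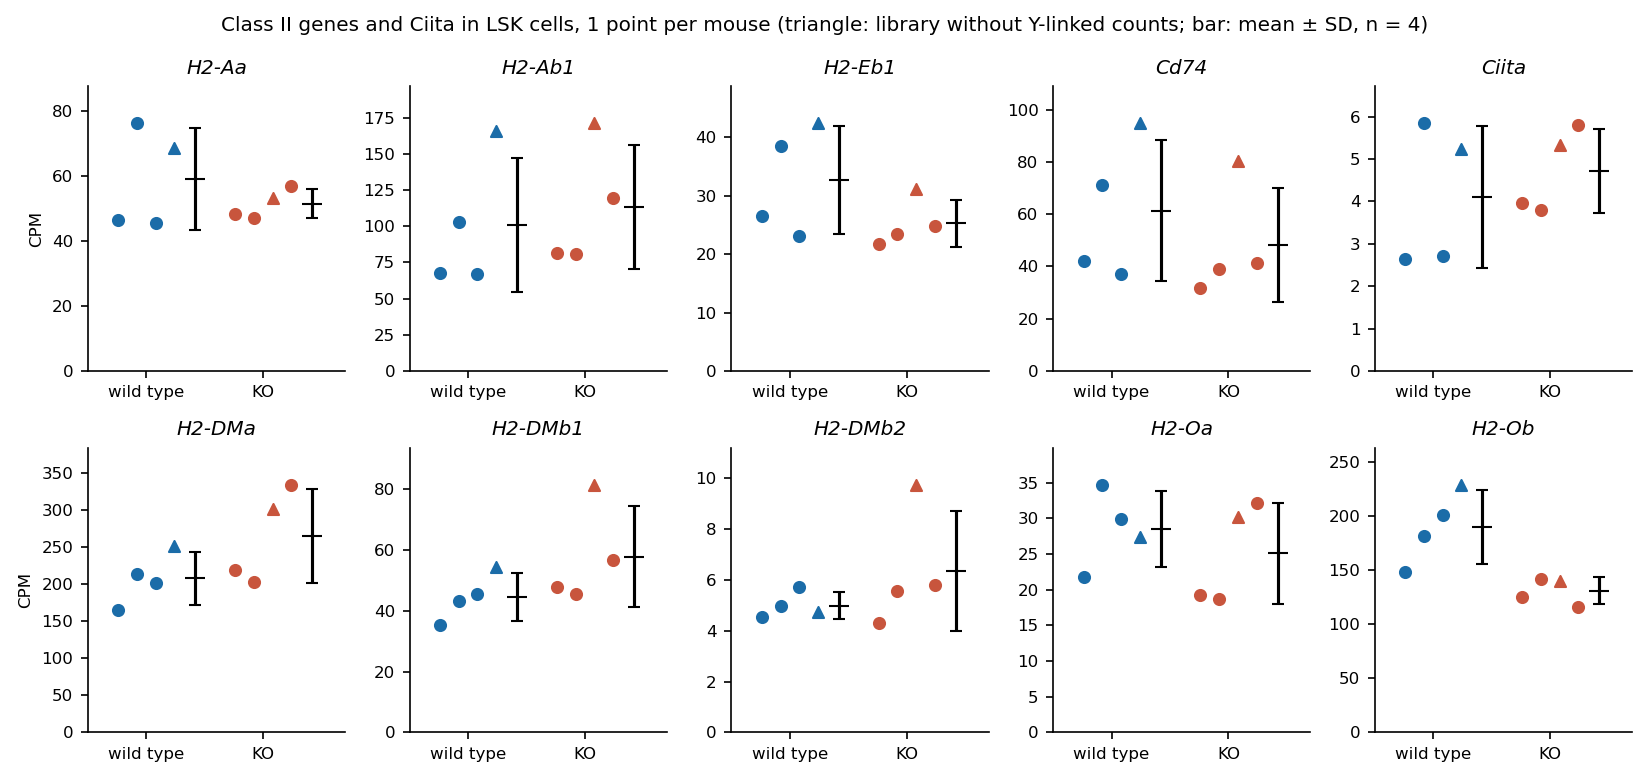
CPM of each member by genotype, 1 point per mouse in the order of the replicate numbers, with the mean and SD of 4 libraries (triangles: the libraries without Y-linked counts). All 4 KO libraries of H2-Ob, from 116 to 142 CPM, lie below the wild type libraries, from 148 to 229 CPM, while the groups overlap in the other 9 members.

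For the I-A and I-E chains, the SD among wild type mice exceeded the difference between the genotype means. H2-Ab1 held 67.9, 103, 66.7 and 166 CPM in wild type and 81.2, 80.9, 171 and 120 CPM in KO. The highest library of each genotype was the one without Y-linked counts. The log2 fold change was 0.17 (95% interval -0.53 to 0.86, adjusted p = 0.930 by edgeR). It turned to -0.10 without KO replicate 3 and was 0.52 without wild type replicate 4.

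H2-Aa held 46.3, 76.2, 45.3 and 68.5 CPM in wild type, where replicates 2 and 4 were high, and 48.3, 47.1, 53.3 and 56.9 CPM in KO. Its log2 fold change was -0.20 (95% interval -0.63 to 0.23, adjusted p = 0.867 by edgeR), and it ran from -0.31 without wild type replicate 3 to -0.06 without wild type replicate 2. H2-Eb1 showed the same pair of high wild type libraries, at 26.6, 38.5, 23.1 and 42.4 CPM for wild type and 21.8, 23.5, 31.1 and 24.8 CPM in KO (log2 fold change -0.37, 95% interval -0.87 to 0.12, adjusted p = 0.832 by edgeR). Without wild type replicate 4 it was -0.22 and without wild type replicate 3 -0.51. H2-Ab1 (34257689 to 34269419, plus strand), H2-Aa (34282744 to 34287823, minus strand) and H2-Eb1 (34305867 to 34316674, plus strand) are neighbours on chromosome 17. H2-Ea-ps, the I-E alpha pseudogene, had 1 count in all 8 libraries together.

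Cd74, the invariant chain, held 42.1, 71.3, 37.3 and 94.9 CPM in wild type and 31.7, 39.2, 80.5 and 41.4 CPM in KO. Wild type replicate 4 and KO replicate 3, the libraries without Y-linked counts, were again the highest of their genotype. The log2 fold change of -0.35 (95% interval -1.10 to 0.40, adjusted p = 0.866 by edgeR) moved with these 2 libraries, to -0.06 without wild type replicate 4 and to -0.72 without KO replicate 3. With the absence of Y-linked counts as a covariate it was -0.38 (adjusted p = 0.567 by edgeR). Cd74 lies outside the histocompatibility region, on chromosome 18 from 60803848 to 60812652 (plus strand).

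Ciita, the class II coactivator, was low but counted in every library, with 24 to 88 counts. It held 2.65, 5.84, 2.71 and 5.22 CPM in wild type and 3.95, 3.798, 5.33 and 5.80 CPM in KO, and the groups overlapped. The log2 fold change was 0.19 (95% interval -0.58 to 0.96, adjusted p = 0.927 by edgeR). With single libraries left out it ran from 0.04 (wild type replicate 3) to 0.41 (wild type replicate 2), and it was -0.031 without wild type replicate 1 and KO replicate 3. Wild type replicates 2 and 4, high for H2-Aa and H2-Eb1, were also the wild type libraries with more Ciita. Ciita (chromosome 16, 10480059 to 10528418, plus strand) shares 329 exon bases with Dexi on the opposite strand. The gene has alternative promoters for different cell types, which gene totals do not tell apart.

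Ratios between members within 1 library do not depend on how libraries are scaled, and the 3 ratios of H2-DM genes to H2-Ob separated by genotype. H2-DMb1 stood at 0.238, 0.238, 0.227 and 0.237 of the H2-Ob CPM in wild type and at 0.382, 0.320, 0.581 and 0.487 in KO. H2-DMa stood at 1.11, 1.18, 1.00 and 1.10 times H2-Ob in wild type and at 1.75, 1.43, 2.15 and 2.88 times in KO. The mean log2 ratio was 0.87 higher in KO for H2-DMb1 to H2-Ob, 0.85 for H2-DMa to H2-Ob and 0.80 for H2-DMb2 to H2-Ob, and in none of the 3 did the groups overlap. The coefficient of variation of the H2-DMb1 to H2-Ob ratio in wild type, 2.33%, was below the counting error of its libraries, 3.79% to 6.22%, so the closeness of these 4 values is finer than the counts can resolve. In KO the same coefficient was 26%, with a counting error of 3.84% to 5.46%.

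Over all 45 pairs of members, 7 pairs (15.6%) had groups that did not overlap, against 4.74% of all 90296641 pairs of tested genes. These pairs share members, were looked at after the values had been seen and were given no test. Besides the 3 with H2-Ob they were H2-DMa to H2-Oa, H2-Ab1 to Cd74, H2-Aa to Ciita and H2-Eb1 to Ciita. H2-Ab1 stood at 1.61, 1.44, 1.79 and 1.75 times Cd74 in wild type and at 2.56, 2.06, 2.13 and 2.89 times in KO. H2-DMa stood at 7.57, 6.17, 6.73 and 9.19 times H2-Oa in wild type and at 11.4, 10.9, 9.98 and 10.4 times in KO, while H2-DMb1 to H2-Oa and H2-DMb2 to H2-Oa overlapped between genotypes. By contrast H2-DMa to H2-DMb1, the chains of 1 pair, gave 4.68 ± 0.222 in wild type and 4.67 ± 0.919 in KO (SD, n = 4 per group), with overlap.

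**Figure D4:**
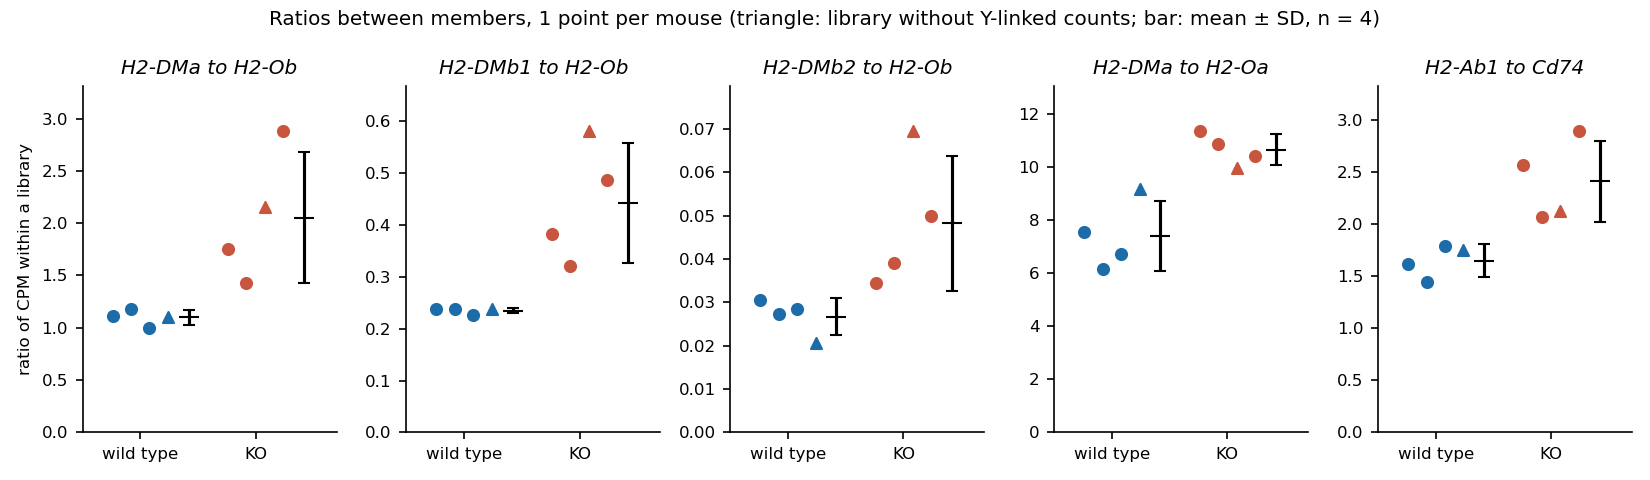
Ratio of the CPM of 2 members within a library, 1 point per mouse, with the mean and SD of 4 libraries per genotype (triangles: the libraries without Y-linked counts). In the 5 pairs shown, a selection made after the values were seen, every KO library lies above every wild type library. H2-Aa to Ciita and H2-Eb1 to Ciita, which are not shown, separated in the opposite direction.

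The next question was whether other genes of the pathway differed. Of 80 further pathway genes in 8 lists, 65 were tested and 0 passed by edgeR, DESeq2 or limma voom, with 3 lower and 0 higher at an unadjusted p under 0.05 by edgeR. Of all 13439 genes tested, 441 were lower and 374 higher at that level. The median log2 fold change of the 65 was -0.05. The factors bound to class II promoters gave 0 of 8 at an unadjusted p under 0.05, with values from -0.18 for Rfx5 to 0.21 for Nfyb, which encode subunits of RFX and NF-Y. Rfx5 held 54.2 ± 3.12 CPM (wild type) and 48.0 ± 4.48 CPM (KO). The genes of the interferon gamma route to Ciita (among them Ifngr1, Jak1, Jak2, Irf1 and the inhibitor Socs1) also gave 0 of 9 at that level, with log2 fold changes of -0.14 for Jak2, -0.13 for Irf1 and 0.04 for Irf2. Among 9 cofactors of transcription 0 reached that level, and Smarca4, an ATPase of chromatin remodelling, gave -0.30.

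Of the genes listed for lysosomal processing, most of them proteases that cut the invariant chain or antigens, 0 of 9 reached an unadjusted p under 0.05 by edgeR. Ctss, the protease of the last cuts in the invariant chain, held 85.2 ± 11.8 CPM (wild type) and 99.5 ± 28.04 CPM (KO) (log2 fold change 0.22). Lgmn, the asparaginyl endopeptidase, gave 0.67 and was highest in KO replicate 3, with 53.4 CPM where the remaining 7 libraries had 11.9 to 26.4 CPM. Sppl2a, which cleaves the stub of Cd74 left in the membrane, gave -0.40 and was lowest in KO replicate 3, at 60.1 CPM. The costimulatory genes Cd80 and Cd40 were under the filter, at means of at most 0.321 CPM, and Cd86 stood at 23.4 ± 7.27 and 24.9 ± 7.89 CPM (SD, n = 4 per group).

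Of 22 genes listed as neighbours in the class II region, 17 were tested and 0 passed by edgeR. Btnl9, which was tested, lies on another chromosome in GENCODE (log2 fold change 0.13). Tap1, the peptide transporter of class I loading, lies between the H2-DM genes and H2-Ob. It held 267, 324, 270 and 328 CPM in wild type and 240, 231, 157 and 236 CPM in KO (log2 fold change -0.46, adjusted p = 0.771 by edgeR), without overlap. Ager gave -1.08 at low counts (2.65 ± 0.68 and 1.24 ± 0.516 CPM), and Tap2, Psmb8, Psmb9 and Brd2 gave -0.23, 0.26, -0.01 and -0.17. Zbtb46, a transcription factor of conventional dendritic cells, was the third pathway gene at an unadjusted p under 0.05. It held 4.08, 2.06, 2.31 and 1.32 CPM in wild type and 0.527, 0.821, 0.761 and 0.619 CPM in KO, without overlap (log2 fold change -1.81, adjusted p = 0.470 by edgeR).

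In bulk RNA fewer cells of a kind and less RNA per cell cannot be told apart, so markers of the cells that carry class II were set beside the members. The 12 B cell markers summed to 380 to 569 CPM in wild type and 417 to 907 CPM in KO, and 1 of 7 tested was higher at an unadjusted p under 0.05 by edgeR, Cd79b. For this and the lists below, 6.06% of all genes tested reached that level in either direction. Most of the B cell sum was Ighm and Igkc. Igkc ran from 0 to 95.8 CPM in wild type and from 19.8 to 217 CPM in KO. The 10 markers of conventional dendritic cells summed to 526 to 733 and 492 to 711 CPM, of which Flt3, an LSK gene too, made up 552 and 542 CPM on average. Clec10a held 4.31 to 7.61 CPM in wild type and 14.8 to 17.8 CPM in KO (log2 fold change 1.37, adjusted p = 0.112 by edgeR). Of the 7 tested, 1 was higher (Clec10a) and 1 lower (Zbtb46) at an unadjusted p under 0.05 by edgeR. The 12 monocyte and macrophage markers summed to 152 to 398 CPM in wild type, where the highest sum held 229 CPM of Ly6c2 in replicate 1, and to 175 to 283 CPM in KO. In that list 2 of 12 were higher in KO at an unadjusted p under 0.05 by edgeR and 0 lower. Vsig4, a complement receptor of tissue macrophages, averaged 0.579 CPM (wild type) and 6.23 CPM (KO) without overlap (log2 fold change 3.36, adjusted p = 0.149 by edgeR). Cd68, a lysosomal protein of macrophages, averaged 25.5 and 42.2 CPM with overlap (log2 fold change 0.73, adjusted p = 0.769 by edgeR).

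The 9 markers of T and innate lymphoid cells summed to 159 to 268 CPM in wild type and 308 to 424 CPM in KO, without overlap. Nkg7 made up most of it, at 176 ± 45.6 and 315 ± 60.8 CPM (SD, n = 4 per group), while Cd3e, Cd3d, Cd3g and Cd8a averaged at most 0.219 CPM. Of the 4 tested, 2 were higher at an unadjusted p under 0.05 by edgeR, Nkg7 and Cd4. Cd4 averaged 7.61 CPM (wild type) and 15.7 CPM (KO) without overlap (log2 fold change 1.05, adjusted p = 0.583 by edgeR). Il7r and Rora, also tested, overlapped and gave log2 fold changes of -0.12 and -0.17. The 8 plasmacytoid dendritic cell markers summed to 321 to 383 and 299 to 349 CPM, mostly Tcf4, Irf8 and Bst2, and of 6 tested 1 was higher and 1 lower at that level. Ly6d averaged 3.03 CPM (wild type) and 8.40 CPM (KO) without overlap (log2 fold change 1.45), and Ccr9 averaged 16.9 and 5.04 CPM with overlap (log2 fold change -1.75). No list had a marker at 0 counts in all libraries, and 0 markers passed by edgeR, against 3 by DESeq2 and 2 by limma voom. By the same tests, in that order, 8, 66 and 31 of all 13439 genes passed. The summed CPM of H2-Aa, H2-Ab1, H2-Eb1 and Cd74 was 183, 289, 172 and 372 in wild type and 183, 191, 336 and 243 in KO. Wild type replicate 2, with 289, had the highest B cell marker sum of its genotype (569 CPM) and the lowest sum of conventional dendritic cell markers (526 CPM). KO replicate 2, with 191, had the highest B cell marker sum of all 8 libraries (907 CPM). Wild type replicate 4, with 372, had a dendritic cell marker sum of 733 CPM and KO replicate 3, with 336, one of 711 CPM. Wild type replicate 3, with the lowest class II sum of all 8 libraries (172), had a dendritic cell marker sum of 733 CPM as well. Most of that sum was Flt3, an LSK gene too, at 657, 658 and 646 CPM in wild type replicate 4, KO replicate 3 and wild type replicate 3. In the same order Xcr1 held 4.53, 3.65 and 1.40 CPM and Itgax 1.51, 0.381 and 4.01 CPM. The part of these cell types in the members' values was not tested.

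**Figure D5:**
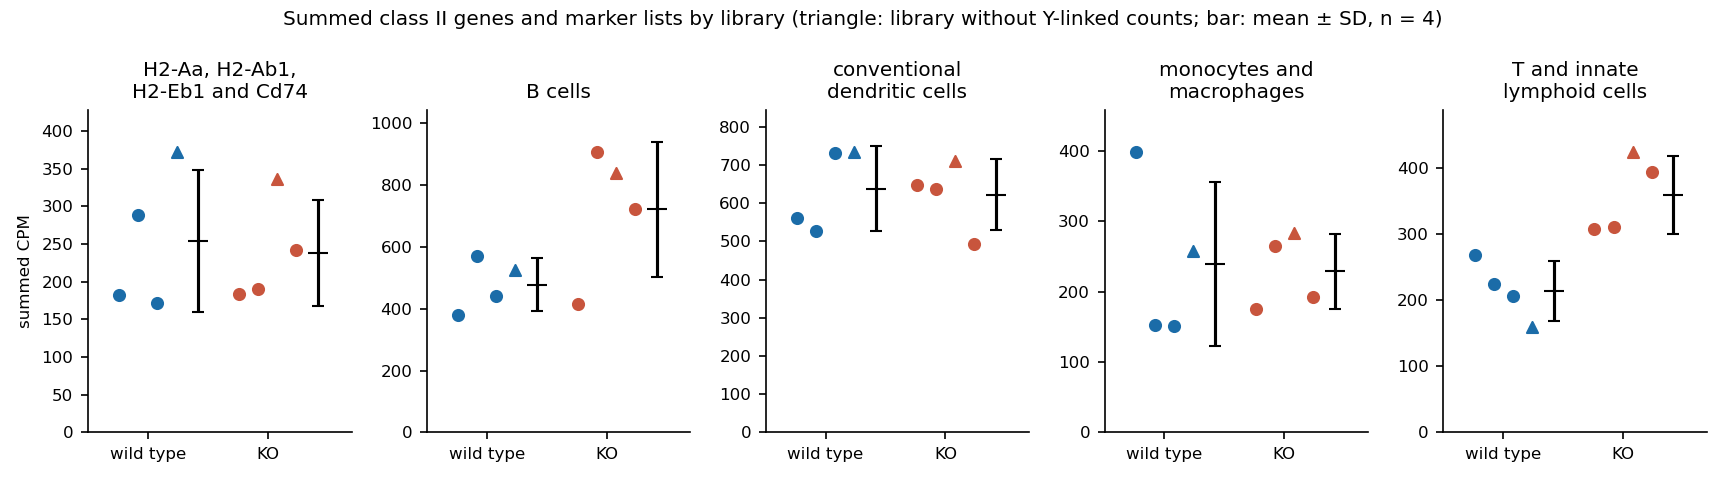
Summed CPM of the 4 genes H2-Aa, H2-Ab1, H2-Eb1 and Cd74 and of 4 marker lists, 1 point per mouse, with the mean and SD of 4 libraries per genotype (triangles: the libraries without Y-linked counts). The class II sum overlaps between genotypes, at 172 to 372 and 183 to 336 CPM, and the T and innate lymphoid sum does not.

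The genes whose pattern over the 8 libraries was most like that of the class II chains were found by Pearson correlation of log2 CPM with the mean of H2-Aa, H2-Ab1, H2-Eb1 and Cd74, among 11245 genes with a mean log2 CPM above 2. Among the closest were Pex16 (r = 0.97), the row Mir5107 (0.96), Yif1a (0.96), Rufy1 (0.94), Dbnl (0.94), Nipsnap1 (0.93) and Harbi1 (0.93). Mir5107 is annotated within Cd74 on the same strand, with 12 bases in its exons, so its row may hold Cd74 reads. Pex16, a peroxisome assembly gene, held 27.1, 36.3, 27.3 and 42.6 CPM in wild type and 26.2, 29.1, 39.5 and 28.8 CPM in KO. As with Cd74, wild type replicates 2 and 4 and KO replicate 3 were the high libraries. These coefficients describe 8 libraries and were picked as the highest of many, so they carry no p-value.

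Among the members themselves, Pearson r over the same 8 libraries was 0.94 for H2-Eb1 and Cd74, 0.87 for H2-Eb1 and H2-Aa and 0.85 for H2-DMa and H2-DMb1. It was 0.79 for Ciita and H2-Aa and 0.82 for Ciita and H2-Ab1. H2-Ob gave -0.10 with Ciita, -0.29 with H2-DMa and -0.16 with H2-DMb1, and 0.63 with H2-Eb1. The points share library, depth and the 2 libraries without Y-linked counts, so these values are descriptions.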

How the data were processed

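RNA was measured in 8 libraries of sorted LSK cells, 1 per mouse. The table the authors deposited holds raw counts for 26146 genes by symbol, with 0 rows lacking a name. Alignment with HISAT2 to mm10 comes from the submitters' processing notes; the sources used here do not give the counting tool, annotation or strand setting. Columns were matched to samples by genotype and number in their names.

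KO was compared with wild type by the quasi-likelihood test of edgeR 4.0.16 (R 4.3.3) with TMM scaling, no covariate and the filter filterByExpr at a min.count of 10 and a min.total.count of 15. This left 13439 genes, over which Benjamini-Hochberg adjustment was made. CPM are counts per TMM-adjusted library size; log2 CPM used a prior count of 2. The common biological coefficient of variation was 27.8%, and replicate pairs differed by more than sampling noise (chi-square per degree of freedom 6.56 to 86.9). Scripts were tested on simulated counts.

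Members and lists were chosen with earlier results of these data known. The rule for names was all members, up to 4 genes of smallest p per pathway list, up to 4 markers of highest mean CPM per list, Jmjd6, and the 8 genes most correlated with the class II chains. All other genes named, such as the markers near 0, Clec10a, Cd86 and Brd2, were chosen after their values were seen. A few genes are not reported here. Positions and transcripts came from GENCODE M21 (mm10) and promoters from RefSeq GRCm38.p6. Alternatives were DESeq2 1.42.0 (size factors and Wald test), limma 3.58.1 voom with sample weights, other filters and scalings, robust shrinkage, a threshold of 0.1, a replicate block, a Y-linked covariate and leaving libraries out.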

Additional observations from a re-analysis of the deposited data

How the results depend on the processing

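None of the 10 members was called by edgeR, DESeq2 or limma voom in any of the alternatives, which were 19 fits and a threshold of 0.1. Of 190 member log2 fold changes under these fits, 3 changed sign: H2-Ab1 gave -0.10 without KO replicate 3, the lowest of a range up to 0.52 with single libraries left out, and -0.25 without wild type replicate 1 and KO replicate 3 together, and Ciita gave a log2 fold change of -0.031 with the same 2 libraries left out. H2-Ob kept its direction and an unadjusted p under 0.05 in all 19 fits. Members with an unadjusted p under 0.05 numbered 1 by edgeR, 2 with the Y-linked covariate (H2-Ob and H2-DMb1), 2 by limma voom, 3 without wild type replicate 1 and KO replicate 3 (H2-Ob, Cd74 and H2-Eb1), and 1 to 2 with single libraries left out (2 without wild type replicate 3, KO replicate 2 or KO replicate 3). The count of all genes past the threshold, 8, was 66 by DESeq2, 31 by limma voom, 15 with the Y-linked covariate, 4 among the libraries with Y-linked counts, 4 without wild type replicate 1 and KO replicate 3, and 2 to 8 with single libraries left out. Markers of other cell types past the threshold were 0 by edgeR, 3 by DESeq2, 2 by limma voom, 2 with the Y-linked covariate and 1 with no filter, while further pathway genes past it were 0 in all alternatives. Replicate numbers occur in both genotypes. Same-numbered libraries had correlations of -0.19 to 0.03 between their deviations from the group means, and 0 of 4 correlated best with their own number. The labels do not say what a number stands for, so these values do not settle whether the numbers mark pairs. With the replicate block, 3 genes and 0 members passed, and H2-Ob gave -0.52. Jmjd6 lost its call, with log2 fold changes from -1.11 to -0.99 over the 19 fits, in 10 of them. With 24 to 88 counts of Ciita and 41 to 128 of H2-DMb2 per library, depth limits these members most.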
